A study of Amphiura filiformis with 28 samples.

Results

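The distal and medial segments of severed *Amphiura filiformis* arms were compared at 5 days post amputation (dpa). The comparison rests on 6 of the 28 RNA-seq samples of the series, namely distal replicates 1, 2 and 5 and medial replicates 1, 2 and 5, chosen by their labels alone. Of 30090 genes with explant values, 21442 reached 1 in 3 or more of the 20 explant samples and were tested. *A. filiformis* is a burrowing brittle star. All samples came from wild-collected adults. For the explants, arms of sedated animals were cut near the disc and again farther out along the arm. Every explant thus carried a wound at either end. The explants were cultured without the body. At 3 or 5 dpa they were sedated, cut into proximal, medial and distal segments, and pooled in large batches of pieces. The distal segment holds the end that regenerates in this species, whereas the medial segment, the control of the study, holds no wound but belongs to the same wounded and isolated arms. A distal segment differs from a medial one in its wound and also in its place along the arm, and these cannot be told apart in this design. The other explant samples are 4 distal, 4 medial and 3 proximal samples at 3 dpa and 3 proximal samples at 5 dpa. The remaining 8 samples form a time course of regenerating arms with 1 sample per stage.

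Regrowth of an appendage needs cells that divide, and dividing cells copy their DNA, make nucleotides, build ribosomes and enlarge their mitochondria. In brittle stars a bud forms under the healed wound epidermis and extends before its tissues differentiate into ossicles, muscle, nerve and water canal. The segment compared here includes the mature stump behind the bud. In such bulk samples, fewer cells of a type and less RNA per cell cannot be told apart.

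Values are abundances in TPM, a length-corrected share of all transcripts, that were rescaled between samples by the trimmed mean of M-values (TMM), and are called TPM below. Differences are distal minus medial means of log2(value + 1), given with the standard error (SE) of the limma fit, and understate the change of genes with low values. A gene was called when its Benjamini–Hochberg adjusted p over all tested genes was under 0.05 and its absolute log2 difference exceeded 1. Adjusted p-values below are from limma. With 3 against 3 samples an exact two-sided permutation test of a single gene cannot go below p = 0.1. The batches were extracted separately, but the labels do not say whether they come from separate groups of animals, so p-values measure the spread between these samples, which may be technical in part.

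The samples of the distal group were more alike than those of the medial group. Pearson correlations of log2 values across genes, which are not independent replicates, were 0.960 to 0.975 within the distal group and 0.929 to 0.954 within the medial group. Between the groups they were 0.907 to 0.954. Medial replicate 2 stood apart, with 7439 genes listed at 0, against 2708 to 4660 in the other 5 samples, and it lay farthest from the rest on the first principal component, which held 41.9% of the variance. Column totals were 1324627 to 1880536 in distal and 1086014 to 1586838 in medial samples. Because TPM keeps no record of reads, the depth of each library is unknown.

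At 5 dpa, 733 genes were higher and 440 lower in distal segments, together 5.47% of the genes tested. All 20 explant samples set the spread in this fit, and a fit of the 6 samples compared alone gave 445 higher and 163 lower genes and ended the call of 19 of the 38 called genes named below. Higher calls made up 3.42% and lower calls 2.05% of the genes tested. The median log2 difference was 1.25 among the higher genes and −1.20 among the lower ones, against 0.01 over all genes tested, and 55 higher and 9 lower genes differed by more than 2. The 3 distal and 3 medial values did not overlap in 716 of the higher and 419 of the lower genes. Over all tested genes, 27.8% showed no overlap in either direction. A mean of at least 10 TPM in the higher group was held by 480 of the higher and 282 of the lower genes. Adding 1 to each value shrinks the differences of weakly expressed genes, so these counts depend on the rule for calls. With a pseudocount of 0.1, 1013 genes were higher and 649 lower.

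The balance of the calls moved with 1 of the 2 other scalings tried. Median of ratios scaling gave 728 higher and 447 lower genes. When all columns were rescaled to the same total, the median difference of all genes moved from 0.01 to −0.12, and 399 genes were called higher and 594 lower. The share of higher genes among the calls then went from 62.5% to 40.2%. All 733 higher and 440 lower genes kept their direction, and 397 and 394 of them kept their call. Without medial replicate 2, 638 genes were higher and 359 lower. Distal values did not overlap with medial ones from above in 15.5% and from below in 12.3% of all genes.

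The genes with the largest differences lie outside the part of the study's gene table used here, and their names were not analysed here. AFI01813 was measured at 43.3, 48.5 and 64.3 TPM in distal replicates 1, 2 and 5, while it was listed at 0 in medial replicate 1 and at 1.96 and 14 TPM in replicates 2 and 5 (log2 difference 3.88, SE 0.76, adjusted p = 0.0023). AFI13555 was at 8.57 to 18.1 TPM in distal samples and 0.0315 to 0.957 in medial samples. Its log2 difference was 3.32 (SE 0.27, adjusted p = 1.3e-06), and 5.40 with a pseudocount of 0.1. In the opposite direction, AFI24804 was among the abundant transcripts of medial segments. It was at 2033, 1881 and 3050 TPM in medial replicates 1, 2 and 5 and at 865, 92.2 and 134 in distal ones (−3.35, SE 0.79, adjusted p = 0.0081), a difference that missed the threshold without distal replicate 2 (−2.73, adjusted p = 0.056). AFI15564 was at 21.8 to 45.0 TPM in distal and 114 to 448 in medial samples (−2.93, SE 0.69, adjusted p = 0.0080). For all 4 genes the groups did not overlap, although the samples of 1 or both groups were far apart in AFI01813, AFI24804 and AFI15564.

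The copy of the study's gene table used here covers chromosome 1 only, with 1193 genes, so names are given for that chromosome alone. Of these, 860 were tested, 589 with a name taken from a SwissProt match. On this chromosome 28 genes were higher and 17 lower, which is 5.23% of those tested, near the 5.47% of all genes. The groups did not overlap in 43 of the 45. The 28 higher genes, 25 of which have a name, included 2 of the DNA replication and repair list, 3 of the ribosome biogenesis list, 4 of the mitochondrial list and 2 of the chaperone list, and the others were of various kinds. The 17 lower genes, 9 with a name, included a nicotinic receptor subunit, matches to extracellular matrix proteins and a pair of neighbouring models matching a coactivator of actin-dependent transcription.

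**Figure D1:**
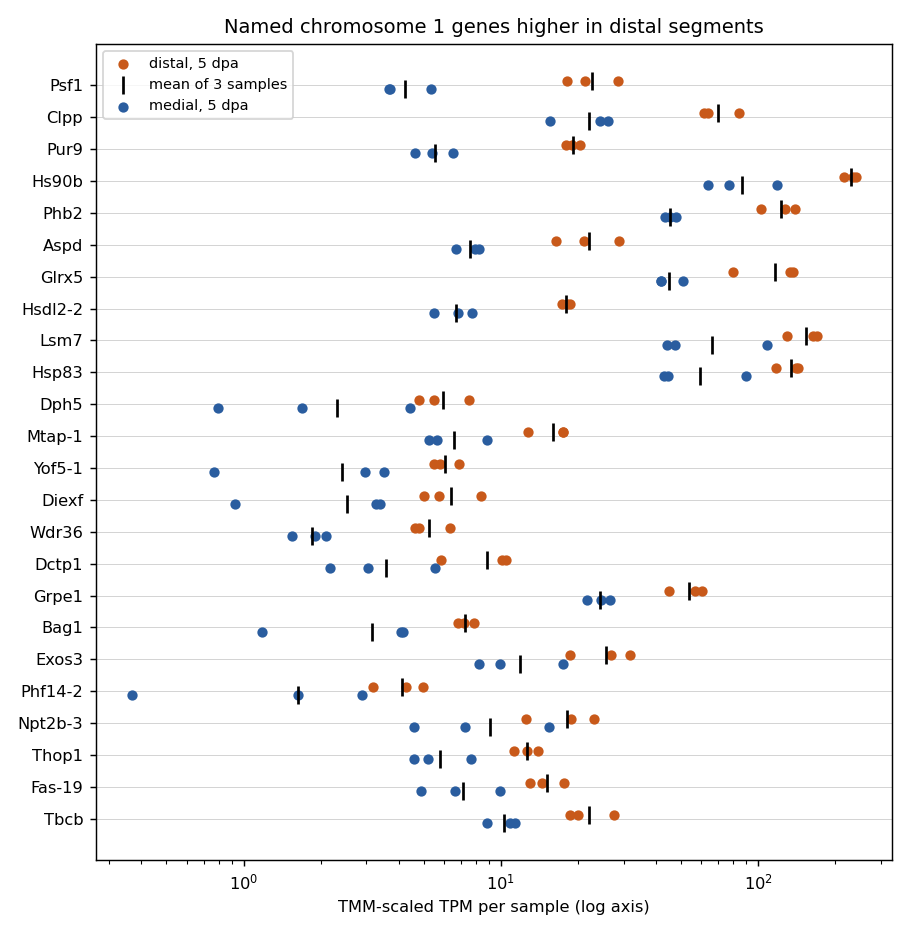
TMM-scaled TPM (log axis) of 24 of the 25 named chromosome 1 genes that were higher in distal segments, ordered by log2 difference, with 1 point per sample (orange, 3 distal; blue, 3 medial) and a black bar at each group mean. Groups are fully separated in every gene but Npt2b-3, and Psf1 at the top shows the largest difference, with distal values of 18 to 28.6 against medial values of 3.68 to 5.36.

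The largest difference among named genes belonged to the replication machinery. Psf1 (AFI29993, chromosome 1, 46276098 to 46284188, minus strand) matches a subunit of the GINS complex, which forms part of the helicase that unwinds DNA at replication forks. It was at 28.6, 21.2 and 18 TPM in distal replicates 1, 2 and 5 and at 3.72, 3.68 and 5.36 in medial ones and the groups were far apart. The means were 22.6 ± 5.42 and 4.25 ± 0.962 TPM (SD, n = 3), a ratio of 5.31, with a log2 difference of 2.16 (SE 0.24, limma adjusted p = 1.3e-05). Of the 18 tested genes in the list for DNA replication, repair and cell division, 2 were called higher, Psf1 among them, against 3.42% of all genes, and none was lower, with a list median of 0.44. Not every gene of the list took this direction. The most abundant members, the cyclin match Ccni and the ubiquitin-conjugating enzyme match Ube2s-2, differed by −0.19 (SE 0.17) and −0.19 (SE 0.19), with overlapping groups. An unnamed gene with a CENP-X domain, which in vertebrates belongs to a centromere and DNA repair protein, was at 20.1 to 28.3 TPM in distal and 5.34 to 16.5 in medial samples (AFI31785, 1.19, SE 0.36, adjusted p = 0.034). Its call was lost without medial replicate 1 (0.77), distal replicate 2 (1.11) or distal replicate 5 (1.12).

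Pur9, Mtap-1 and Dctp1, which match enzymes of nucleotide metabolism, were higher. They were brought together after their values were seen, and no list of such enzymes was counted. Pur9 (AFI30136, 11765814 to 11793887, plus strand) matches the bifunctional enzyme that completes the synthesis of inosine monophosphate, the precursor of purine nucleotides. It was at 18.9, 20.4 and 17.9 TPM in distal replicates 1, 2 and 5 and at 6.53, 5.40 and 4.63 in medial ones. The samples of each group lay close together, and the group means differed by a ratio of 3.45 (log2 difference 1.63, SE 0.17, adjusted p = 1.2e-05). Mtap-1 (AFI31268), a match to the phosphorylase that salvages adenine and methionine from methylthioadenosine, was at 12.8 to 17.4 TPM in distal and 5.24 to 8.81 in medial segments (1.17, SE 0.20, adjusted p = 8.2e-04). Dctp1 (AFI30514), which matches a pyrophosphatase that removes non-canonical deoxycytidine nucleotides, differed by 1.13 (SE 0.25, adjusted p = 0.0060), and its group ranges nearly touched, at 5.86 to 10.5 and 2.16 to 5.54 TPM. Only Dctp1 among these 3 lost its call when a replicate was left out, namely medial replicate 1 (0.90) or distal replicate 2 (0.998, just under the threshold).

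Mitochondrial proteins formed a further group. Of the 12 tested members of the list, 4 were called higher, against 3.42% of all genes, none was lower, and 9 were higher with an adjusted p under 0.05 whatever the size, which held for 8.4% of all genes. The list median was 0.76, or 0.58 at equal totals. Clpp (AFI29753, 54968427 to 54986907, plus strand), a match to the proteolytic subunit of the ClpXP protease of the mitochondrial matrix, was at 84.2, 63.9 and 61.7 TPM in distal replicates 1, 2 and 5 and at 15.5, 24.3 and 26.0 in medial ones. Its log2 difference was 1.65 (SE 0.22, adjusted p = 9.6e-05), and distal values exceeded medial values by a ratio of means of 3.18. Phb2 (AFI30853, 37196988 to 37226019, plus strand) matches prohibitin 2, which forms ring complexes in the inner membrane. It was at 139, 127 and 103 TPM in distal and 47.9, 45.5 and 43.4 TPM in medial samples (1.40, SE 0.16, adjusted p = 1.9e-05). The medial values of Phb2 lay within a few TPM of each other, far below the lowest distal value. Glrx5 (AFI30795), a match to the glutaredoxin of iron-sulfur cluster assembly, differed by 1.32 (SE 0.31, adjusted p = 0.0070). Grpe1 (AFI30384), the nucleotide exchange factor of mitochondrial Hsp70 and chosen after its values were seen, differed by 1.12 (SE 0.20, adjusted p = 0.0013). At equal totals Grpe1 fell under the threshold (0.94). Subunits of the respiratory chain and the ATP synthase showed smaller differences. Atp5h, the most abundant member, was at 694 to 939 TPM in distal and 396 to 584 in medial segments (0.71, SE 0.22, adjusted p = 0.038), Ndus8, chosen after its values were seen, differed by 0.81, and Nduba by 0.29 (SE 0.22, adjusted p = 0.41) with overlapping groups.

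Of the 13 tested genes for ribosome biogenesis and RNA polymerase subunits, 3 were called higher, against 3.42% of all genes. At any size of the difference 10 were higher with an adjusted p under 0.05, against 8.4% of all genes, and the other 3 did not pass the test. All 13 differences were positive, with a median of 0.81. At equal totals 12 of the 13 were positive, with a median of 0.66 and no call left. Wdr36 (AFI31443), a match to the Utp21 protein of the small-subunit processome that assembles on nascent ribosomal RNA, was at 4.65, 6.32 and 4.79 TPM in distal replicates 1, 2 and 5 and at 2.09, 1.54 and 1.89 in medial ones (1.13, SE 0.16, adjusted p = 1.7e-04). Diexf (AFI31206), a match to Utp25 of the same particle, differed by 1.14 (SE 0.26, adjusted p = 0.0060). Exos3 (AFI31373), a match to a cap subunit of the RNA exosome, differed by 1.09 (SE 0.32, adjusted p = 0.030). Diexf had an outlying low value of 0.923 TPM in medial replicate 2 beside 3.39 and 3.26 in the other medial samples, and without that replicate its difference was 0.75, under the threshold. Its call was also lost without distal replicate 2 (0.95), and that of Exos3 without distal replicate 1 (1.05), distal replicate 2 (0.93), medial replicate 1 (1.01) or medial replicate 5 (0.88). Rpab1, a subunit shared by the nuclear RNA polymerases, differed by 0.84 (SE 0.18, adjusted p = 0.0043), Heat1, chosen after its values were seen, by 0.80, and Pno1 by 0.56 (SE 0.20, adjusted p = 0.066).

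Of the 11 tested genes in the translation list, 1 was called higher, against 3.42% of all genes, and 7 were higher with an adjusted p under 0.05 at any size, against 8.4% of all genes. The median was 0.86, or 0.69 at equal totals, where no call was left. The called gene, Dph5 (AFI31650), matches a methyltransferase of the diphthamide pathway that modifies elongation factor 2. It was at 4.81, 7.50 and 5.51 TPM in distal and 4.42, 0.791 and 1.68 TPM in medial samples (1.21, SE 0.29, adjusted p = 0.0088). Its highest medial value reached almost to the lowest distal one, and the call was lost without medial replicate 2 (0.85) or distal replicate 2 (1.05). Ribosomal proteins are the most abundant members of the list, and Rl37 varied widely within both groups. It was at 26097, 15600 and 14140 TPM in distal and 7748, 13891 and 8866 TPM in medial samples (0.86, SE 0.40, adjusted p = 0.16). Rl21 differed by 0.65 (SE 0.35, adjusted p = 0.24) and Rl3 by 0.95 (SE 0.32, adjusted p = 0.053). The leucyl-tRNA synthetase match Sylc, chosen after its values were seen, differed by 0.98 and so stood just under the threshold.

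Among RNA-binding proteins, Lsm7 (AFI31246), a match to a subunit of the LSm rings that bind U6 small nuclear RNA and decaying messenger RNA, was at 162.8, 169 and 130 TPM in distal and 44.2, 108 and 47.4 TPM in medial samples (1.31, SE 0.28, adjusted p = 0.0041). Medial replicate 2 was the high medial sample for this gene, and without it the difference was 1.72. The call was lost when only the 6 samples compared (adjusted p = 0.076) or the 9 samples of 5 dpa (adjusted p = 0.068) were fitted. The splicing and processing list as a whole did not move with it, with 6 of 12 tested genes positive and 6 negative and a median of −0.02. Lsm7 alone was called higher, against 3.42% of all genes. At any size, 2 were higher with an adjusted p under 0.05, against 8.4% of all genes. Prp39, a U1 splicing factor match, differed by 0.64 (SE 0.18, adjusted p = 0.022).

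Both models that match the HSP90 chaperone were higher. Hs90b (AFI30566, 20670386 to 20672734, plus strand) was at 235, 241 and 216 TPM in distal replicates 1, 2 and 5 and at 119, 64.1 and 77.1 in medial ones (1.45, SE 0.41, adjusted p = 0.022). Hsp83 (AFI29871, 20667059 to 20670328, plus strand) was at 141, 143 and 118 TPM in distal and 89.9, 43.0 and 44.7 TPM in medial samples (1.24, SE 0.40, adjusted p = 0.043). In both, medial replicate 1 was the highest medial sample. The models follow each other on one strand with 57 bases between them, and only Hsp83 carries the ATPase domain, so they may be pieces of 1 gene and are not independent. Leaving out medial replicate 2, distal replicate 1, distal replicate 2 or medial replicate 5 ended both calls, with differences of 1.26 to 1.43 for Hs90b and 1.06 to 1.20 for Hsp83, and leaving out distal replicate 5 ended that of Hsp83 (1.33). At equal totals neither model was called (Hs90b 1.27, adjusted p = 0.10, Hsp83 1.06, adjusted p = 0.19). The 2 models were the only calls among the 18 tested genes for chaperones and the secretory pathway, against 3.42% of all genes called higher. The median of this list was 0.15, and Spcs3, a signal peptidase subunit, was at 46.7 to 50.8 TPM in distal and 36.1 to 57.7 in medial samples.

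The remaining higher genes named by rule are in none of the lists. Aspd (AFI31333), a match to an aspartate dehydrogenase, was at 16.3, 28.8 and 21.0 TPM in distal and 8.22, 6.70 and 7.90 TPM in medial samples (1.39, SE 0.20, adjusted p = 2.1e-04). Hsdl2-2 (AFI31368), a match to a dehydrogenase-like protein with a sterol carrier domain, was at 17.3 to 18.5 TPM in distal and 5.48 to 7.73 in medial segments (1.32, SE 0.15, adjusted p = 1.7e-05). Its distal values lay close together, and the neighbouring model Hsdl2-1 on the same strand differed by −0.06. Yof5-1 (AFI29786), an aldo-keto reductase domain gene, was at 5.50 to 6.90 TPM in distal and 0.763 to 3.51 in medial segments (1.16, SE 0.30, adjusted p = 0.015), and lost its call without medial replicate 2 (0.74) or distal replicate 2 (1.07). AFI29669, which carries a YqaJ nuclease domain, differed by 1.01 (SE 0.23, adjusted p = 0.0065) and lost its call without distal replicate 2 (0.83), medial replicate 2 (0.94) or medial replicate 5 (0.94). Psf1, Clpp, Pur9, Phb2, Aspd, Hsdl2-2 and Mtap-1 were the 7 of the 28 higher genes that kept their call in all 17 alternative settings.

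**Figure D2:**
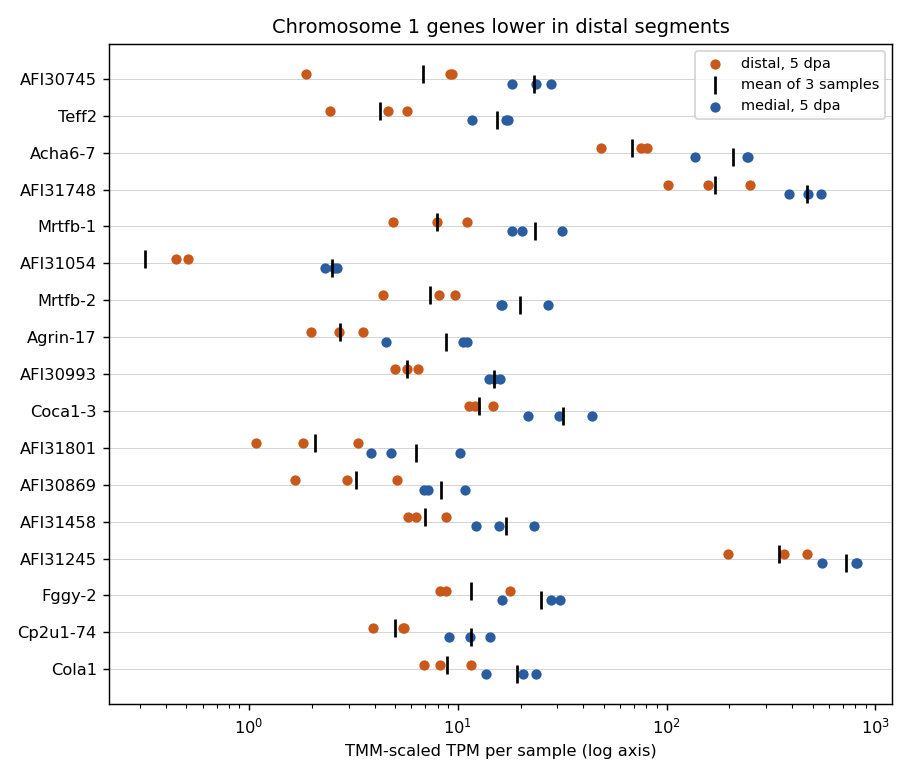
TMM-scaled TPM (log axis) of the 17 chromosome 1 genes that were lower in distal segments, ordered by log2 difference, with 1 point per sample (orange, 3 distal; blue, 3 medial) and a black bar at each group mean. A value listed at 0 (AFI31054 in distal replicate 1) has no point on the log axis, and the groups overlap in Fggy-2 alone.

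The lower gene with the highest expression among the named ones was a neurotransmitter receptor subunit. Acha6-7 (AFI31791, 48682780 to 48696714, minus strand) matches the alpha-6 subunit of the nicotinic acetylcholine receptor, a cation channel opened by acetylcholine. It was at 80.6, 48.5 and 75.1 TPM in distal replicates 1, 2 and 5 and at 136, 243 and 246 in medial ones. Every distal value lay below every medial value, with means of 68.0 ± 17.2 and 208 ± 62.4 TPM (SD, n = 3), a medial over distal ratio of 3.06, and a log2 difference of −1.58 (SE 0.28, limma adjusted p = 0.0011). Ach1-4 (AFI31420), another nicotinic receptor subunit match that lies nearby on the same strand, was at 11.3 to 14.9 TPM in distal and 23.6 to 27.9 in medial segments. Its difference of −0.93 (SE 0.23, adjusted p = 0.0097) did not reach the size threshold, though it did at equal totals (−1.10). The subunit match Acha6-6 differed by −0.34 (SE 0.22, adjusted p = 0.35), and Gabr2-64, a GABA receptor match chosen after its values were seen, by −0.73. Of the 19 tested receptors and transporters in the list, 1 was called lower, against 2.05% of all genes, 3 were lower with an adjusted p under 0.05 at any size, against 5.79% of all genes, and 15 were negative, with a median of −0.23.

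Coca1-3 and Cola1 were lower among the genes listed for extracellular matrix and adhesion. They were 2 of 7 tested, against 2.05% of all genes called lower, and the other 5 did not pass the test. The list median was −0.48, and Nrcam-3, a cell adhesion molecule match, was at 2.5 to 2.88 TPM in distal and 4.05 to 4.85 in medial segments (−0.54, SE 0.29, adjusted p = 0.23). Coca1-3 (AFI31984), a match to the collagen XII alpha chain that here carries a von Willebrand factor A domain, was at 11.4, 12.1 and 14.7 TPM in distal and 43.9, 30.6 and 21.7 TPM in medial samples (−1.22, SE 0.23, adjusted p = 0.0018). Cola1 (AFI30777), another collagen match with this domain, was at 6.86 to 11.6 TPM in distal and 13.6 to 23.6 in medial segments (−1.03, SE 0.24, adjusted p = 0.0071). Medial replicate 1 held the highest medial value of both, and without it the differences were −0.97 and −0.87, under the threshold. Cola1 also fell under it without distal replicate 1 (−0.99), distal replicate 2 (−0.88) or medial replicate 2 (−0.97). Agrin-17 (AFI31864), named for a heparan sulfate proteoglycan and carrying Kazal and Kunitz protease inhibitor domains, was at 1.98 to 3.52 TPM in distal and 4.55 to 11.1 in medial segments (−1.32, SE 0.29, adjusted p = 0.0052). Teff2 (AFI31766), a match to the tomoregulin-2 membrane protein with a Kazal domain, had the largest difference of the lower named genes. It was at 4.64, 2.45 and 5.70 TPM in distal and 11.7, 17.4 and 16.9 TPM in medial samples (−1.67, SE 0.24, adjusted p = 1.9e-04), with no overlap.

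A pair of neighbouring models matched a myocardin-related transcription factor, which in vertebrates binds monomeric actin through RPEL motifs and activates genes of the cytoskeleton. Mrtfb-1 (AFI29949, 60030264 to 60034056, plus strand) was at 7.92, 4.91 and 11 TPM in distal and 18.2, 20.3 and 31.7 TPM in medial samples (−1.47, SE 0.26, adjusted p = 0.0010). Mrtfb-2 (AFI30917, 59978329 to 60029720, plus strand), the model with the RPEL domain, was at 8.09, 4.37 and 9.70 TPM in distal and 16.4, 16.2 and 27 TPM in medial samples (−1.33, SE 0.25, adjusted p = 0.0018). The order of the 6 samples was nearly the same in both. They lie 543 bases apart on one strand, may be pieces of 1 gene, and are not independent. In the list of cytoskeletal genes (actins, tubulin, arginine kinase and spectrins), 10 of 11 tested were negative with a median of −0.40. None was called, against 5.47% of all genes. Addg, an adducin match, differed by −0.40 (SE 0.13, adjusted p = 0.046) and the spectrin match Sptb2-2 by −0.57 (SE 0.16, adjusted p = 0.025).

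Other lower genes were of diverse kinds. Cp2u1-74 (AFI31030), a cytochrome P450, was at 3.94 to 5.53 TPM in distal and 9.04 to 14.3 in medial segments (−1.06, SE 0.17, adjusted p = 4.5e-04), and fell under the size threshold without distal replicate 1 (−0.93) or medial replicate 5 (−0.91). Fggy-2 (AFI30517), a carbohydrate kinase, differed by −1.08 (SE 0.33, adjusted p = 0.037) with overlapping groups, and lost its call without distal replicate 2 (−0.90), distal replicate 5 (−0.94), medial replicate 1 (−0.98) or medial replicate 5 (−0.91). AFI30745, with the domain of a small subunit of serine palmitoyltransferase, an enzyme of sphingolipid synthesis, had the largest negative difference on the chromosome (−1.83, SE 0.52, adjusted p = 0.023). It was at 9.17, 9.35 and 1.87 TPM in distal and 18.1, 28.1 and 23.6 TPM in medial samples. Distal replicate 5 was far below the other distal samples, and without it the difference was −1.22 and not called, as was the case without medial replicate 2 (−1.69) or medial replicate 5 (−1.81). AFI30869, an EF-hand gene, differed by −1.19 (SE 0.38, adjusted p = 0.044), a call that was lost without any one of distal replicates 2 (−1.18) and 5 (−0.89) and medial replicates 1 (−1.29), 2 (−0.9999) and 5 (−1.27). AFI31458, with a solute-binding domain, differed by −1.15 (SE 0.23, adjusted p = 0.0029), and by −0.92 without medial replicate 2. The unnamed AFI31748, chosen after its values were seen, was an abundant transcript at 251, 101 and 159 TPM in distal and 384, 476 and 547 TPM in medial samples (−1.54, adjusted p = 0.0034). Of the 17 lower genes, 5 kept their call in all 17 alternative settings, among them Teff2, Acha6-7, Mrtfb-1 and AFI31748.

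No gene of the list of plasminogen-like, coagulation factor-like and trypsin-domain genes was called, against 5.47% of all genes. The vertebrate counterparts of the first of these kinds act in clotting and its dissolution. Of the 9 listed, 6 were tested, all with a negative difference and a median of −0.64, and Plmn-20, Fa9-10 and Bssp4 were lower with an adjusted p under 0.05 at any size, against 5.79% of all genes. Plmn-20 (AFI31125), which has a kringle domain, was at 27.1, 16.2 and 22.2 TPM in distal and 35.6, 53.9 and 32.1 TPM in medial samples (−0.85, SE 0.28, adjusted p = 0.048). Fa9-10 (AFI30435) was at 4.18 to 5.61 TPM in distal and 9.51 to 10.2 in medial segments (−0.89, SE 0.16, adjusted p = 0.0010), with a medial over distal ratio of 2.02 and nearly constant medial values. Bssp4, a trypsin-domain gene, differed by −0.54 (SE 0.17, adjusted p = 0.040) and Plmn-19 by −0.31 (SE 0.35, adjusted p = 0.62). Plmn-18 and Fa11-3 were below the filter, and Fa11-3 was listed at 0 in all 6 samples. Plmn-20 would have been called without distal replicate 1 (−1.02) and without medial replicate 5 (−1.002), and both Plmn-20 (−1.03) and Fa9-10 (−1.04) at equal totals.

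**Figure D3:**
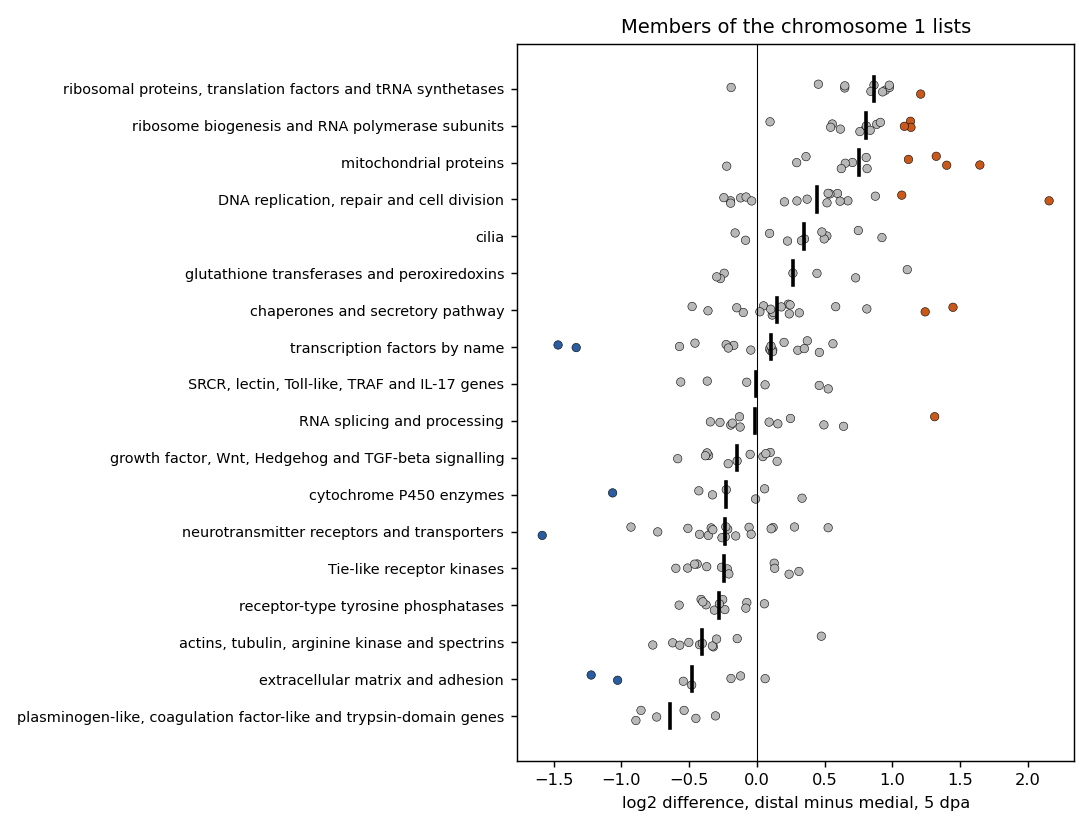
Log2 differences (distal minus medial, 5 dpa) of the tested members of 18 chromosome 1 gene lists, with 1 point per gene, a black bar at each list median, and orange or blue for genes called higher or lower. Medians run from −0.64 for plasminogen-like and coagulation factor-like genes to 0.86 for the translation list, and 19 genes of the lists were called.

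Several lists held no called gene. With 5.47% of all genes called, this says little for lists so short and does not show that their genes are unchanged. None of the 11 tested genes of growth factor, Wnt, Hedgehog and TGF-beta signalling was called (median −0.15), and Lrp5-3, its most abundant member and a Wnt co-receptor match, differed by −0.38 (SE 0.27, adjusted p = 0.39). None of the 12 Tie-like receptor kinases (median −0.24) or the 11 receptor-type tyrosine phosphatases (median −0.28) was called either. Of 6 tested genes in the list of SRCR, lectin, Toll-like, TRAF and IL-17 genes none was called (median −0.01), and of 7 cytochrome P450 genes Cp2u1-74 alone was (median −0.23). Among 7 glutathione transferases and peroxiredoxins (median 0.27), the peroxiredoxin match Prdx1 differed by 0.73 (SE 0.20, adjusted p = 0.022). In the list of 19 transcription factors by name only the Mrtfb models were called, and its median of 0.10 became −0.05 at equal totals. Atf4, the most abundant transcription factor of the list, was at 753 to 1180 TPM in distal and 747 to 809 in medial samples (0.20, SE 0.21, adjusted p = 0.59), and Tyy1 differed by −0.04 (SE 0.17, adjusted p = 0.90). Among the genes the study's table marks as immune genes, 47 were tested. Of these, 3 were lower, against 2.05% of all genes, and none was higher, against 3.42%. Those 3, Coca1-3, Cola1 and Agrin-17, have names of matrix proteins. At any size, 7 of the 47 were lower with an adjusted p under 0.05, against 5.79% of all genes, and 1 was higher, against 8.4%. In the other lists marked there, none of 26 kinase, 27 transcription factor or 8 signalling genes tested was called. Of the kinase genes 19 were negative, and 2 were lower with an adjusted p under 0.05 at any size. Of the transcription factor genes 18 were positive, and 2 were higher by that measure. Of 7 tested genes marked for stemness, Diexf alone was called, and it was higher.

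Marker genes of cell types that a segment can hold were summed in each sample. Acha6-7 was the only one called, against 5.47% of all genes. The sums did not overlap between the groups for the cilia, neuron and immune lists. Among single genes, 27.8% of all tested showed no overlap in either direction. For cilia, 12 genes were listed, none at 0 in all 6 samples, and their summed level was 60.8 to 71.5 TPM in distal and 46.1 to 47.4 in medial samples. None of the 11 tested was called, against 5.47% of all genes. Rsph9, a radial spoke protein, differed by 0.92 (SE 0.24, adjusted p = 0.014) and Drc8, of the dynein regulatory complex, by 0.75 (SE 0.22, adjusted p = 0.031), while Ift25 differed by 0.23 (SE 0.27, adjusted p = 0.64). For neurons, the summed level of 29 listed genes was 198 to 243 TPM in distal and 324 to 458 in medial samples. Acha6-7 is the largest contributor, with means of 68.0 TPM in distal and 208 TPM in medial samples. Of the 21 tested neuron genes, 17 were negative and 4 positive, with a median of −0.23. The neuron markers from outside the receptor list differed little, Elav4 by −0.18 (adjusted p = 0.50) and Syt17 by −0.13 (adjusted p = 0.83). For immune cells, 16 genes summed to 18.3 to 22.9 TPM in distal and 24.5 to 29.0 in medial samples, with 1 gene at 0 in all 6 samples and 3 positive and 3 negative differences among the 6 tested genes, and the most abundant of them, the Toll-like receptor match Tlr2-17, differed by −0.56 (SE 0.28, adjusted p = 0.20) with overlapping groups. The 4 muscle markers summed to 3.12 to 5.66 and 4.30 to 9.70 TPM, ranges that overlap, and the opsin Opsd-2 stayed under 1 TPM in all 6 samples. The part of cell composition in the differences described above was not tested.

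The genes called at 5 dpa were then examined at 3 dpa, in 4 distal and 4 medial samples whose values do not enter the 5 dpa differences. They do enter the estimate of the spread and the filter behind the 5 dpa calls, since all explant samples were fitted together. Of the 733 higher genes, 700 were also above 0 at 3 dpa (95.5%), with a median log2 difference of 0.75. Of the 440 lower genes, 409 were also below 0 (93.0%), with a median of −0.59. Among all genes tested, 50.7% were above 0 and the median was 0.01. Since the genes were picked on their 5 dpa values, smaller values at 3 dpa say nothing of a change with time. By the same thresholds, 364 genes (1.7%) were higher and 61 (0.284%) lower at 3 dpa. The 225 genes called higher at both times were 30.7% of the 5 dpa list and 61.8% of the 3 dpa list, and the 41 called lower at both were 9.32% and 67.2%. No gene was called in opposite directions at 3 and 5 dpa. The plot of both time points marks the 5 dpa calls only.

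**Figure D4:**
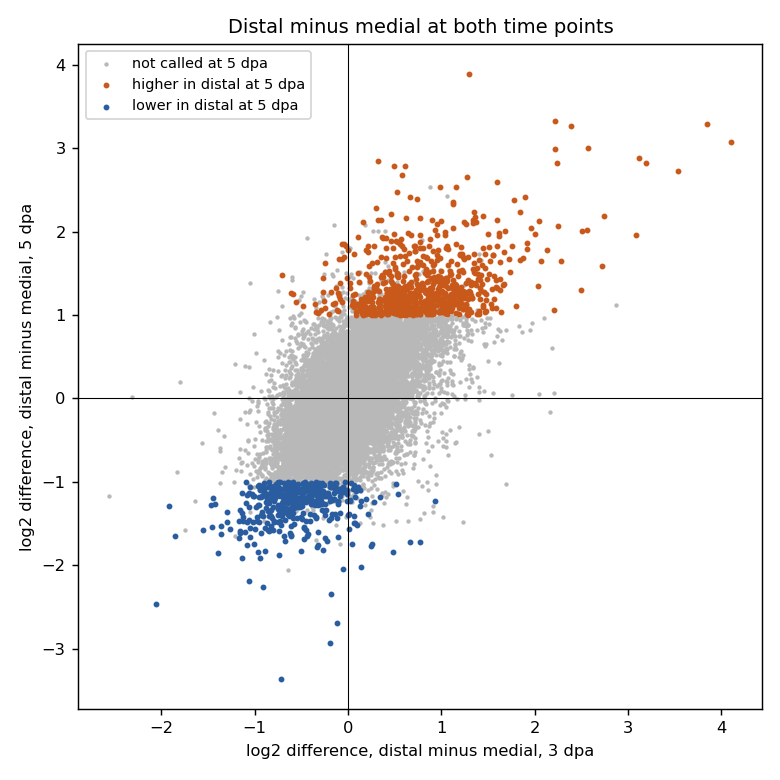
Log2 difference between distal and medial segments at 5 dpa (vertical axis) against that at 3 dpa (horizontal axis) for the 21442 tested genes, with genes called at 5 dpa in orange (733 higher) and blue (440 lower) and the others in grey. Most coloured points lie in the quadrants of equal sign, 700 of the higher and 409 of the lower genes.

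On chromosome 1, 27 of the 28 higher and 15 of the 17 lower genes had the same direction at 3 dpa, and 9 and 4 were called there. Pur9 was at 16.9 to 19.8 TPM in the 4 distal and 5.23 to 7.48 in the 4 medial samples at 3 dpa (1.35, SE 0.15, adjusted p = 1.6e-05), so that its levels at both times were close. Phb2 (1.03, SE 0.14, adjusted p = 9.5e-05) and Clpp (1.10, SE 0.19, adjusted p = 0.0011) were likewise called at 3 dpa. Psf1 was not. It was at 7.98, 9.91, 7.72 and 7.32 TPM in distal replicates 1 to 4 and at 4.30, 4.79, 5.66 and 5.25 in medial ones (0.62, SE 0.20, adjusted p = 0.072), whereas the lowest distal value at 5 dpa was 18. Among lower genes, Acha6-7 was at 72.9 to 116 TPM in distal and 148 to 230 in medial samples at 3 dpa (−1.15, SE 0.24, adjusted p = 0.0055), Teff2 at 6.60 to 8.39 and 16.5 to 19.2 (−1.16, SE 0.21, adjusted p = 0.0014), and Mrtfb-1 at 9.87 to 14.7 and 23.0 to 35.9 (−1.17, SE 0.22, adjusted p = 0.0025). The groups of all 3 were again separate.

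A change between the time points was tested directly as the difference of the distal against medial differences. Only 19 genes (0.0886%) passed, 18 with a more positive difference at 5 dpa (0.0839%) and 1 with a more negative one (0.00466%). In the 18 genes the difference of differences was 1.08 to 2.17, and the difference was 0.76 to 2.78 at 5 dpa and −0.62 to 0.61 at 3 dpa. None lies among the tested chromosome 1 genes, and 15 of the 18 were called higher at 5 dpa. At an unadjusted p under 0.05, 7.56% of genes differed. For Psf1 the difference of differences was 1.54 (adjusted p = 0.080). The count rested on the scaling and on single libraries, with 1 gene at equal totals, 11 without distal replicate 2 and 31 without medial replicate 1.

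The study singled out a few genes for opposite changes in wound-healing and regenerating segments, and a pair of them could be matched here by identifier. It reports AFI18858 as raised in wound healing and lowered in regeneration, and AFI33635 as the reverse. Its text names no time point for either. Proximal values of AFI33635 are not given here, so for that gene only the distal change is shown. AFI18858 was at 6.43, 1.9 and 3.63 TPM in distal replicates 1, 2 and 5, at 14.7, 11.8 and 12.2 in the medial ones and at 46.9, 33.1 and 19 in the proximal replicates 1, 4 and 5. In the deposited scaling it thus had its lowest values in distal and its highest in proximal segments, without overlap between the 3 groups. The distal against medial difference was −1.58 (SE 0.32, adjusted p = 0.0030), and the proximal against medial difference, which shares the medial samples, was 1.21 (adjusted p = 0.035). At 3 dpa the distal against medial difference was −1.56 (SE 0.28, adjusted p = 0.0014). AFI33635 was at 2.44 to 2.87 TPM in distal and 0.812 to 3.46 in medial samples at 5 dpa, with overlapping groups (0.25, SE 0.34, adjusted p = 0.69). At 3 dpa it was at 3.15 to 6.75 TPM in distal and 1.01 to 2.70 in medial samples (1.07, SE 0.29, adjusted p = 0.032), and the change between the time points was −0.82 (adjusted p = 0.71).

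Proximal segments, which close a wound without regrowth, were measured against the same medial samples, and their values are given only side by side. Psf1 was at 8.90, 15.8 and 6.39 TPM in proximal replicates 1, 4 and 5, above every medial and below every distal value. Pur9 was at 7.06 to 11.6 TPM and Phb2 at 71.6 to 93.6 TPM in proximal samples, again between the ranges of the other segments. Hs90b, at 143 to 231 TPM, overlapped with the distal range. Mrtfb-1, at 21.1 to 23.8 TPM, and Teff2, at 10.1 to 19.4 TPM, overlapped with the medial range, and their proximal against medial differences were −0.03 (adjusted p = 0.96) and −0.21 (adjusted p = 0.66).

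The time course of regenerating arms gave a readout that the explant comparison did not use. Each stage is a single pool of regenerates, so no difference between stages has an error. The stage of highest value was taken for each tested gene with a value above 0. Among the 733 genes higher in distal explant segments, 76.4% peaked at stages 3 to 5, when a regenerate of new tissue was dissected, against 32.4% of all 21325 genes. Among the 438 lower genes with values, 85.6% peaked in the non-regenerating control or at 48 or 72 h post amputation (hpa), when a whole mature segment was dissected, against 47.4% of all genes. The control alone held 57.1% of the lower and 2.18% of the higher genes.

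These shares moved with the scaling, since the 8 column totals run from 551379 to 1866500. At equal totals, 58.0% of the higher genes peaked at stages 3 to 5 against 13.8% of all genes, nearly all of them at stage 5 (54.0%). The lower genes then had 75.6% of their peaks in the control or at 48 or 72 hpa against 46.8% of all genes, with the control at 21.9%. Which stage a peak falls on is therefore not settled by these values, while the share of higher genes peaking at stages 3 to 5 was above that of all genes under both scalings.

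**Figure D5:**
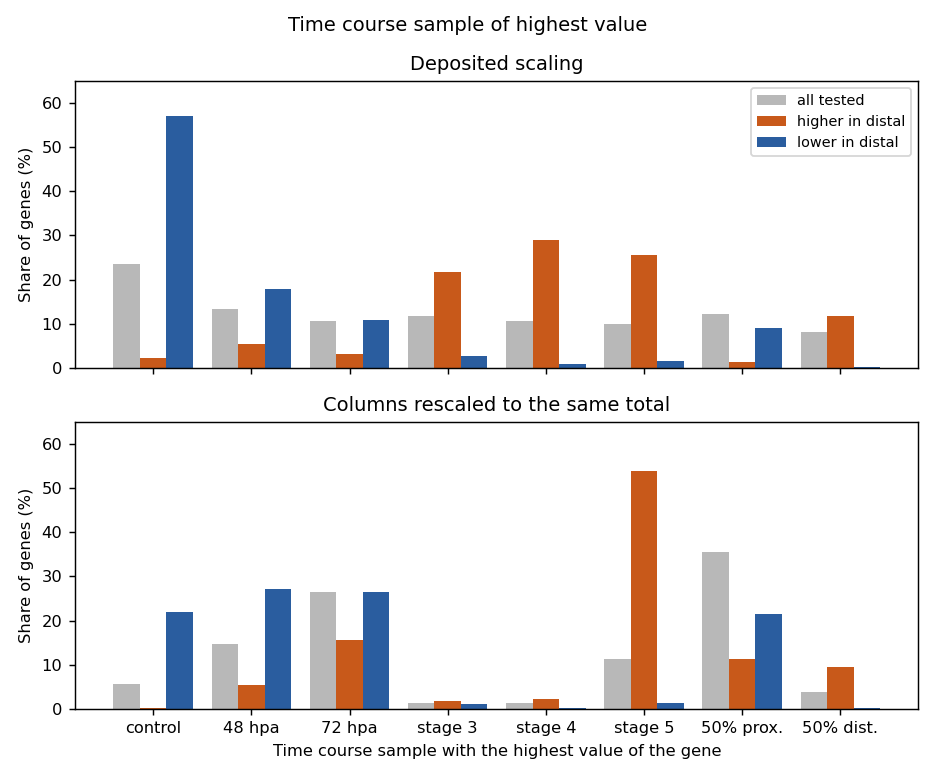
Share of genes (%) by the time course sample in which they have their highest value, for all tested genes (grey, n = 21325), genes higher in distal segments at 5 dpa (orange, n = 733) and lower ones (blue, n = 438), with the deposited scaling (top) and at equal column totals (bottom). Orange bars are highest at stages 3 to 5 in the top panel (21.7%, 29.1% and 25.6%) and at stage 5 in the bottom panel (54.0%), and the highest blue bar moves from the control (57.1%) to 48 hpa (27.2%).

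Values of single genes show both patterns and some exceptions. Psf1 had values of 7.65 TPM in non-regenerating arms, 2.49 at 48 hpa, 27.2 at stage 3 and 38.6 at stage 4. Clpp reached 172 TPM at stage 3 beside a control value of 44.4, and Pur9 reached 19.1 TPM at stage 5 beside 1.38. For lower genes, Acha6-7 had 50.8 TPM in non-regenerating arms, 4.57 at 48 hpa and no more than 0.316 at stages 3 to 5. The control value of Teff2 was 9.30 TPM and its highest value at these stages 0.1, and for Coca1-3 these values were 15.8 and 2.77. AFI30745 went the other way, with 20.2 TPM in the control and 35.6 at stage 4. Mrtfb-1 stayed under 1 TPM in every sample of the time course, although it reached 31.7 TPM in medial explant segments. For genes outside the gene table used here, AFI24804 was at 301 TPM in the control and listed at 0 at stages 3, 4 and 5, and AFI01813 at 0.0806 TPM in the control and 168 in the distal part of half-differentiated arms. The dissected tissue differs between stages, and values of the time course and of the explants were normalized separately, so that levels cannot be compared across them.

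The study's table also gives an age class for each chromosome 1 gene. Of the 28 higher genes, 23 (82.1%) belong to the oldest class, shared by cellular organisms, against 55.0% of the 860 tested genes, and 9 of the 17 lower genes (52.9%) do. Of the 91 tested genes assigned to *A. filiformis* alone, none was higher, against 3.42% of all genes, and 2 were lower, against 2.05%. These are counts on 1 chromosome, and no test was made of them.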

How the data were processed

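RNA-seq was measured in 28 samples, 20 of explants and 8 of a time course. The authors pseudo-aligned reads to their gene models with kallisto and deposited, for each experiment, a normalized signal, TPM rescaled between samples with TMM. For the explants that table's label is the source of the TMM step. TPM keeps no depth, so no counting interval can be given. The study's own calls were made on counts with DESeq2, which was not used here. The gene table's columns of the authors' differential expression calls and expression clusters were not used.

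Samples were grouped by their labels. Values were fitted as log2(value + 1) with limma 3.58.1 (R 4.3.3), an intensity trend, and the 20 explant samples in 6 groups. Contrasts were distal minus medial at 5 and 3 dpa, their difference, and proximal minus medial at 5 dpa. Python 3.11.15, pandas 2.3.3 and scipy 1.17.1 served for the other steps. The fit was tested on simulated data.

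Names (SwissProt matches) and positions are those of the study's gene table, on the authors' assembly. Values of near-identical copies are uncertain, since ambiguous reads are divided among them.

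The rule for named genes took, per direction, the 2 largest calls with separate groups whose higher mean reached 10, then up to 16 named and 4 domain-only calls on chromosome 1. It added the 3 most abundant members of each list, of which some are not described, a pair of genes the study names and a few fixed genes. The result of 1 called gene is not reported here. The members, lists and tests were chosen with earlier results of these data known. Alternatives were a pseudocount of 0.1, other filters, fits of 6 or 9 samples, a replicate block, other scalings, no trend, sample weights and each replicate left out.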

Additional observations from a re-analysis of the deposited data

Results flagged for a closer look

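Of 24 groups of 4 samples at 3 dpa that were examined for a sample far from the rest, 2 had one, and chance alone gives about 1 in 20. Hs90b was at 349 TPM in medial replicate 4 at 3 dpa and at 120 to 152 TPM in the other 3 medial samples, and distal replicate 4 was also the highest distal sample at that time (556 TPM against 272 to 323). Coca1-3 was at 28.4 TPM in distal replicate 1 at 3 dpa and at 17.9 to 19.3 TPM in the other 3 distal samples. The difference between distal and medial segments changed between 3 and 5 dpa, by the test of the difference of differences, in 19 genes.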

How the results depend on the processing

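In all, 17 alternative settings were run, 7 of which left out 1 replicate. None of the 38 called genes named in the text changed sign in any of them. Fitting only the 6 samples compared gave 608 calls (445 higher, 163 lower), 11 higher and 6 lower on chromosome 1 and 9 in the lists, and fitting the 9 samples of 5 dpa gave 609 (422 higher, 187 lower), 11, 10 and 12. These fits have fewer samples to estimate the spread. At equal totals 399 genes were higher, 9 of them on chromosome 1, 1 gene changed between the time points, and 58.0% of the higher and 75.6% of the lower genes peaked in the stages named in the report. A pseudocount of 0.1 gave 1662 calls (1013 higher, 649 lower), with 38 higher and 27 lower genes on chromosome 1. The cause was not tested.

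Leaving out 1 replicate gave 872 to 1384 calls, 561 to 859 higher and 311 to 536 lower. On chromosome 1 the ranges were 15 to 30 higher and 14 to 21 lower, with 12 to 22 in the lists. Called genes with the same direction at 3 dpa numbered 834 to 1283, and genes that changed between the times 11 to 31. Genes that were not called and changed sign were AFI33635 (−0.13 to 0.52), Lrp5-3 (−0.72 to 0.012), Atf4 (−0.0055 to 0.32), Tyy1 (−0.12 to 0.016) and Spcs3 (−0.14 to 0.19, with −0.13 at equal totals and −0.016 with sample weights). Elav4 and Syt17 were not examined in this way.

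Deviations of same-numbered distal and medial samples from their group means correlated at −0.04, −0.02 and 0.20 for numbers 1, 2 and 5. The 0.20 was the highest of all combinations, and samples of unlike number ran from −0.12 to 0.11. With 3 samples per group these values cannot decide whether the numbers mark pairs, which the labels do not state. The numbers were not taken as pairs. With a replicate block 1281 genes were called (782 higher, 499 lower), 17 changed between the times, and all 38 called genes named kept their call. Depth is unknown, so genes near the filter are the least certain.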
